A study of Homo sapiens with 14 samples.

Results

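The E2F, MYBL2 and FOXM1 cycle transcription factors are 10 genes chosen by symbol, namely E2F1, E2F2, E2F3, E2F4, E2F7, E2F8, TFDP1, MYBL2, FOXM1 and LIN54. All 10 were found among the 36601 genes of the single-cell matrices and among the 60624 genes of the bulk tables. The set was selected with the much lower late levels of MYBL2 and FOXM1 in these cultures already known, so the difference between late and early days is given here as a description without a test. The cells were SW620, a metastatic human colorectal cancer line, and SW620-TET2CD, the same line overexpressing the catalytic domain of TET2, a DNA demethylase. The study calls its control SW620-FLAG, after the empty FLAG vector, and the sample labels call it SW620. Cultures were left without passage for up to 15 days (long-term culture, LTC). In LTC, cells first grow as colonies, and a growing share of them is then found outside the colonies. Single-cell RNA-seq covered both lines on days 6, 9, 12 and 15, with 1 library for each line and day. Bulk RNA-seq covered whole day 6 cultures of SW620 and of SW480, a colorectal cancer line from a primary tumor. It also covered day 15 cultures of SW620 and SW620-TET2CD, split by a strainer into cells inside and outside the colonies, again with 1 library each. The sources used here do not give how the TET2CD line was selected or whether it is 1 clone.

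E2F proteins bind DNA as dimers with a DP partner such as TFDP1, and they switch on the genes of DNA replication at the G1/S border when the retinoblastoma proteins release them. E2F1, E2F2 and E2F3 are the activators, E2F4 works mainly as a repressor in resting cells, and E2F7 and E2F8 are atypical repressors that bind without a DP partner and are themselves made in S phase. LIN54 is the DNA-binding subunit of the MuvB core. In resting cells this core joins E2F4 and a retinoblastoma-like protein in the DREAM repressor, and in dividing cells it joins first MYBL2 (B-MYB) and then FOXM1 to turn on the genes of mitosis.

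Promoters are shown for members whose levels were lower together on the late days (E2F1, E2F2 and MYBL2) and, as a contrast, for E2F3, whose level was not. Each is the 250 bases upstream of the RefSeq start on GRCh38.p14, read 5′ to 3′ on the strand of the gene. The windows are chr20:33686386-33686635 (minus strand) for E2F1, chr1:23531234-23531483 (minus strand) for E2F2, chr20:43666864-43667113 (plus strand) for MYBL2 and chr6:20401629-20401878 (plus strand) for E2F3. Capitals mark E2F words (TTTCCCGC, TTTCGCGC, TTTGCCGC, TTTGGCGC or GGCGGGA), the CHR word TTTGAA, which MuvB complexes read, and CCAAT, the word of NF-Y, on either strand. Where words overlap they form 1 run of capitals.
E2F1: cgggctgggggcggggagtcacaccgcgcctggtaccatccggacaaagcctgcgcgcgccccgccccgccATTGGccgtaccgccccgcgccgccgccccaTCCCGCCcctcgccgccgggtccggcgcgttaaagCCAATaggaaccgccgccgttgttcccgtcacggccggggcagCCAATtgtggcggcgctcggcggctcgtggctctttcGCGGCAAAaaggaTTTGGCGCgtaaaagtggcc
E2F2: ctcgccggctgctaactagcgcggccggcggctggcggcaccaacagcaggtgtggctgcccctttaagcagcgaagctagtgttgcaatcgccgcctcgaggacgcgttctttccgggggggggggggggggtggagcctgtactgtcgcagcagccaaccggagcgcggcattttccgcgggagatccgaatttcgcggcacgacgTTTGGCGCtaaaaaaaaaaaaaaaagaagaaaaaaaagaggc
MYBL2: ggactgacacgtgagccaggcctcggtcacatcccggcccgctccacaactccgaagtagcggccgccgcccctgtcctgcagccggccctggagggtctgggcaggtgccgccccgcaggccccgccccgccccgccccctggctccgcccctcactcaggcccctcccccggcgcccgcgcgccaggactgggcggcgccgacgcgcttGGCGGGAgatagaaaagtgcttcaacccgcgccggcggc
E2F3: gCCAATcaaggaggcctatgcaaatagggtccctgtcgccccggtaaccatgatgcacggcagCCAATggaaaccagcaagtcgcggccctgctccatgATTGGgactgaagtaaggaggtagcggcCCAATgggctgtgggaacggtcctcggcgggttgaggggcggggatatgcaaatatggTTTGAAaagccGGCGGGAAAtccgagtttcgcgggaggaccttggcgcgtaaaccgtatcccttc

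The E2F1 window holds 3 E2F words, which begin 148, 33 and 20 bases before the start, and 3 CCAAT words. The E2F2 and MYBL2 windows hold 1 E2F word each, 42 and 39 bases before the start, and neither a CHR word nor CCAAT. The E2F3 window also holds an E2F word (54 bases before the start), beside a CHR word and 4 CCAAT words, and it is the only one of the 4 shown with a CHR word. A second E2F3 window, chr6:20403364-20403613 (plus strand), holds 2 E2F words, 133 and 38 bases before its start, and neither a CHR word nor CCAAT. The set of RefSeq promoters used here matched 8 of the 10 members, in 10 windows, and held no window for E2F8 or FOXM1. Of those 8 members, 6 held an E2F word, 2 a CHR word (E2F3 and LIN54) and 3 CCAAT (E2F1, E2F3 and E2F7). E2F4 held none of them, and E2F7 held no E2F word. Both were lower on the late days. A member counts if any of its windows holds the word, and some have more than 1 window. The shares that follow are counted per window. Among all 35116 promoter windows of the same length, 15.2% held an E2F word, 13.3% a CHR word and 32% CCAAT. The word GGCGGGA alone was in 13.5%, and each of the longer E2F words in 0.439% to 1.39%. These matches describe the letters only.

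The 8 single-cell libraries held 67056 barcodes, of which 48282 met the quality limits of the study (between 200 and 4500 genes, between 1000 and 20000 UMIs, no more than 10% of UMIs mitochondrial). A UMI tags 1 captured RNA molecule. Summed over the kept cells, a library held 48186195 to 74185723 UMIs, and levels are given as CPM, that is, relative to 1e6 UMIs of that sum. The bulk libraries held 16477779 to 25854058 expected counts. Colorectal epithelium markers (EPCAM, CDH1, keratins and others, 8 of 8 found) summed to 8098 to 12240 CPM. The sum was mostly KRT8 and KRT18 (3861 and 5416 of 10070 CPM in SW620 on day 6), with EPCAM at 639 CPM there. KRT20 was at most 0.965 CPM and CDX1 at most 0.207 CPM in any library. Fibroblast markers summed to at most 28.7 CPM, leukocyte markers to at most 31.8 CPM and endothelium markers to at most 1.39 CPM, and 1 of the 6 leukocyte and 1 of the 4 endothelium markers had no UMI in any library. The leukocyte sum was higher on days 12 and 15 than on days 6 and 9 within each line, and it was nearly all LYZ (20.5 of 20.7 CPM in SW620 on day 15), with PTPRC, CD3E and TYROBP at or near 0. The fibroblast sum was lower on the late days and was mostly LUM (27.2 of 28.7 CPM in SW620 on day 6), with COL1A2 and COL3A1 at or near 0. TET2 stood at 2.11 to 3.90 CPM in SW620 and 40.2 to 107 CPM in SW620-TET2CD. Each pair of libraries shared 1 to 23 barcodes, at most 0.33% of a library. Since each line and day is 1 library, p-values measure the spread between days or lines and not between cultures.

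MYBL2 (chromosome 20, 43667019 to 43716495, plus strand, GRCh38) had a far lower level on the late days than on the early days. In SW620 it stood at 94.6 CPM on day 6, 84.5 CPM on day 9, 4.63 CPM on day 12 and 4.33 CPM on day 15. In SW620-TET2CD it stood at 91.3, 80.8, 11.4 and 5.35 CPM on the same days. All 4 early libraries lay far above all 4 late ones, and the step fell between days 9 and 12. The early mean was 20.0 times the late mean in SW620 and 10.3 times in SW620-TET2CD, log2 differences of -4.32 and -3.36. FOXM1 (chromosome 12, 2857680 to 2877174, minus strand), the forkhead factor of the mitotic genes, took the same course. Its levels in SW620 were 57.5, 62.3, 3.74 and 6.13 CPM, and in SW620-TET2CD 70.4, 63.9, 10.8 and 6.25 CPM. The log2 differences were -3.60 and -2.98. The lowest FOXM1 level was on day 12 in SW620 and on day 15 in SW620-TET2CD, but without the upper cell limits it was on day 15 in both lines (7.02 and 10.7 CPM).

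**Figure D1:**
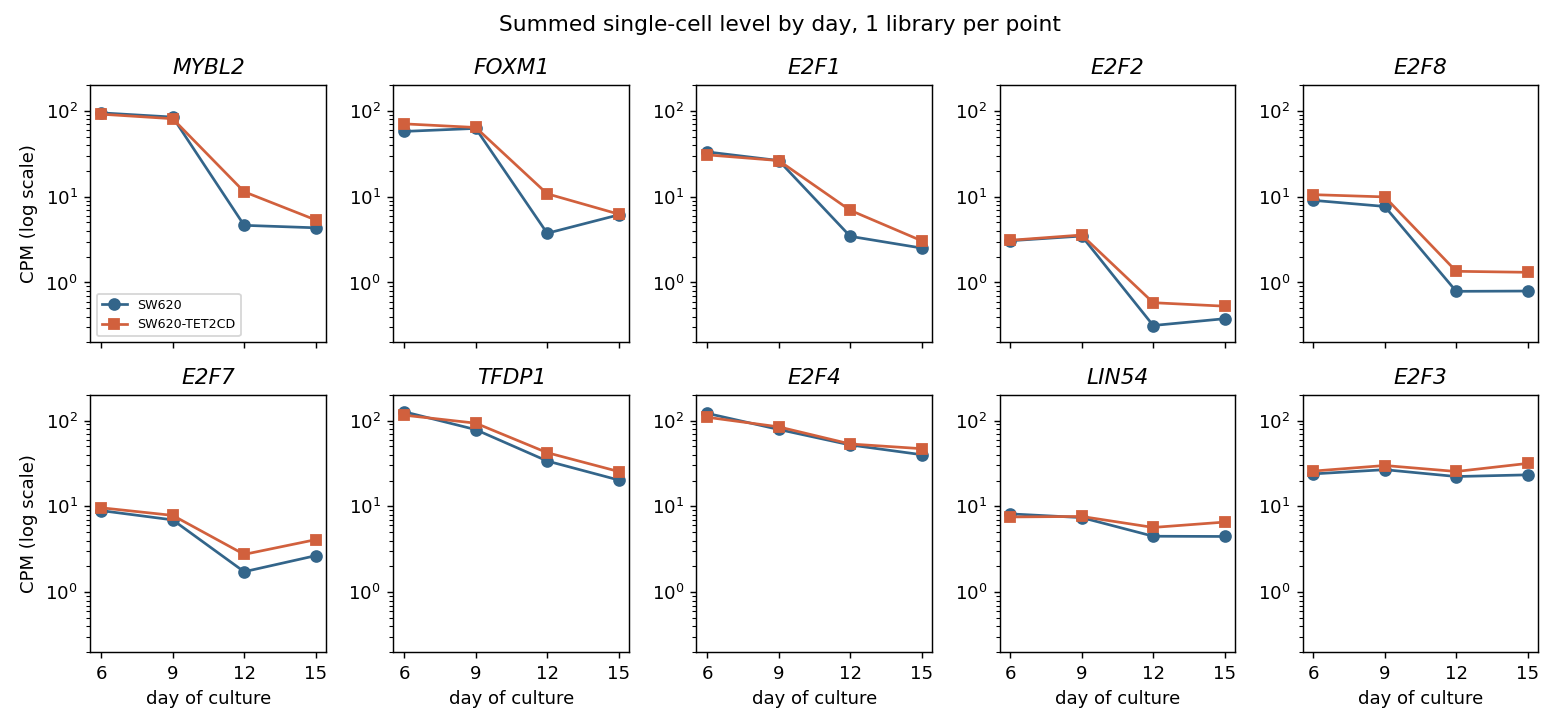
Level of each member in summed single-cell UMIs (CPM, log axis) by day of culture, 1 point per library, circles for SW620 and squares for SW620-TET2CD. MYBL2, FOXM1, E2F1, E2F2 and E2F8 are lower on days 12 and 15 than on days 6 and 9 in both lines, while E2F3 stays between 22.3 and 31.7 CPM.

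The activators did not move as a block. E2F1 (chromosome 20, 33675477 to 33686385, minus strand) stood at 33.2, 26.3, 3.45 and 2.52 CPM in SW620 over the 4 days. In SW620-TET2CD its levels were 30.6, 26.3, 6.93 and 3.06 CPM. Its early mean was 9.98 times and 5.70 times the late mean. E2F2 (chromosome 1, 23506438 to 23531233, minus strand), at a much lower level, went from 3.06 to 3.57 CPM on the early days to 0.315 to 0.581 CPM on the late days over both lines, log2 differences of -3.24 in SW620 and -2.59 in SW620-TET2CD. E2F3 (chromosome 6, 20401879 to 20493714, plus strand) lay between 22.3 and 31.7 CPM in all 8 libraries. Its log2 differences were -0.15 and 0.04. Its late libraries lay just below its early ones in SW620 (22.3 and 23.3 against 23.9 and 26.8 CPM), and the 2 pairs overlapped in SW620-TET2CD.

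Of the repressors, the atypical pair was lower on the late days by unequal amounts. E2F8 (chromosome 11, 19224063 to 19241620, minus strand) lay between 7.68 and 10.5 CPM in the early libraries and between 0.788 and 1.35 CPM in the late ones, with log2 differences of -3.40 in SW620 and -2.94 in SW620-TET2CD. E2F7 (chromosome 12, 77021248 to 77065569, minus strand) stood at 8.93, 6.97, 1.73 and 2.67 CPM in SW620 and at 9.64, 7.86, 2.76 and 4.10 CPM in SW620-TET2CD. E2F7 was higher on day 15 than on day 12 in both lines, but without the upper cell limits it was lower (2.82 and 2.65 CPM in SW620, 5.13 and 4.64 CPM in SW620-TET2CD). E2F4 (chromosome 16, 67192155 to 67198918, plus strand) was lower at each later day, going from 121 to 78.8, 52.0 and 40.0 CPM in SW620 and from 109 to 84.5, 53.4 and 47.0 CPM in SW620-TET2CD. Its early mean was 2.18 times and 1.93 times the late mean.

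TFDP1 (chromosome 13, 113584721 to 113641473, plus strand), the DP partner, was also lower at every later day. It stood at 127, 78.4, 33.8 and 20.3 CPM in SW620 and at 116, 93.2, 42.3 and 25.5 CPM in SW620-TET2CD, log2 differences of -1.92 and -1.62. LIN54 (chromosome 4, 82909973 to 83012926, minus strand) lay between 7.41 and 8.18 CPM in the early libraries and between 4.46 and 6.57 CPM in the late ones, with log2 differences of -0.80 and -0.31. Over the 10 members the median log2 difference was -2.58 in SW620 and -2.07 in SW620-TET2CD, beside medians over all genes of 0.03 and 0.12. A late level at least 2-fold lower was seen in 8 members in SW620 and in 7 in SW620-TET2CD, E2F4 being the one past it in SW620 only. Among the 13266 and 13267 genes of that comparison it was seen in 10.8% and 7.38%. This contrast chose the members, so nothing is read from these counts.

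Genes listed as targets of these factors were lower on the late days, and the listed partners varied. Of 20 G1/S target genes (cyclin E, MCM and origin genes and others), 20 were lower on the late days in each line, with medians of -2.52 in SW620 and -1.92 in SW620-TET2CD. Of 20 G2/M target genes (cyclin B, PLK1, aurora kinases and others), 20 were lower in each line, with medians of -2.66 and -2.18. The 12 partners (other E2F, DP, retinoblastoma, MuvB and MYB genes) had medians of -0.47 and -0.13, with 8 lower in SW620 and 7 lower in SW620-TET2CD, and ran from -2.45 to 1.12 and from -1.82 to 1.22. Over all genes the medians were 0.03 and 0.12. At least 2-fold lower were 19 of 20 genes of each target list in each line and 4 and 2 partners, beside 10.8% and 7.38% of all genes. The lists were chosen with earlier results of these data known, so nothing is read from these counts. RBL2, the p130 protein of the DREAM repressor, was the partner with the largest difference upward, from an early mean of 18.3 to a late mean of 39.6 CPM in SW620 and from 17.4 to 40.4 CPM in SW620-TET2CD. MYBL1, the A-MYB relative of MYBL2, had the largest difference downward, -2.45 and -1.82. RBL1, the p107 protein, had -1.82 and -1.21. RBL2, MYBL1 and RBL1 were picked out after their values were seen.

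The size of the difference depended on which cells were counted. The upper limits of 4500 genes and 20000 UMIs removed 6877 cells, a share of the cells left by the other limits that did not follow the day. In SW620 it was 26.6% on day 6, 1.15% on day 9, 22.5% on day 12 and 1.83% on day 15. In SW620-TET2CD it was 5.11%, 14.2%, 28.97% and 6.51%. The median UMIs per kept cell stood in the same order as the share in SW620, at 13479, 6640, 13110.5 and 7127. In SW620-TET2CD it was 8615.5, 11152, 12379 and 8310.5, highest on days 9 and 12, which had the largest shares. With these cells kept, MYBL2 on day 12 stood at 13.8 CPM in SW620 and 29.4 CPM in SW620-TET2CD in place of 4.63 and 11.4 CPM. FOXM1 on day 12 stood at 11.7 and 26.2 CPM in place of 3.74 and 10.8 CPM, and E2F1 at 7.50 and 11.5 CPM in place of 3.45 and 6.93 CPM. On days 6, 9 and 15 MYBL2 then stood at 98.1, 85.1 and 4.82 CPM in SW620. In SW620-TET2CD it stood at 92.8, 83.9 and 9.06 CPM, where the day 15 level had been 5.35 CPM. The log2 late minus early difference of MYBL2 was then -3.30 in SW620 and -2.20 in SW620-TET2CD, and the median over the members -2.05 and -1.40. The early libraries stayed above the late ones for MYBL2, FOXM1 and E2F1. The G2/M class described next then held 9.17% of cells in SW620 and 18.9% in SW620-TET2CD on day 12. Doublets were not called, and their part in these levels was not tested.

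**Figure D2:**
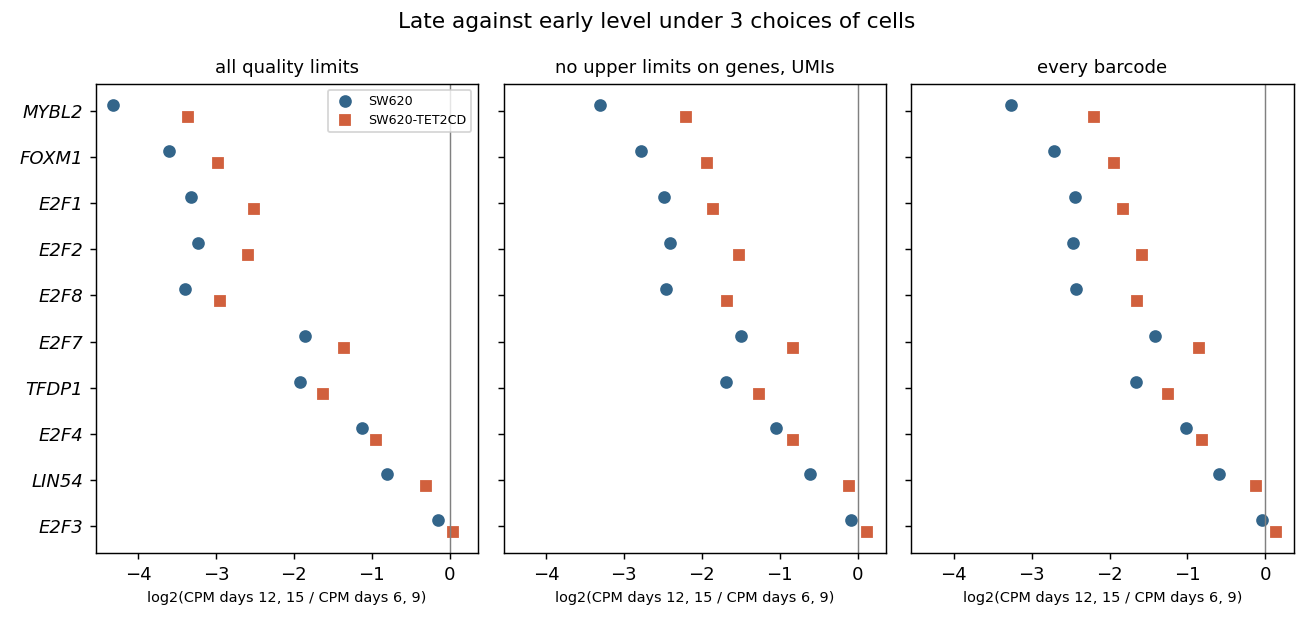
Log2 ratio of the late (days 12 and 15) to the early (days 6 and 9) mean CPM of each member under 3 choices of cells, circles for SW620 and squares for SW620-TET2CD. Without the upper limits MYBL2 moves from -4.32 to -3.30 in SW620 and from -3.36 to -2.20 in SW620-TET2CD, and every barcode gives nearly the same values as no upper limits.

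A level summed over all cells holds both how many cells divide and how much of the RNA each holds, so the members were also read within cell-cycle classes. Each kept cell was thinned to 2000 UMIs, which left out 333 shallower cells, and classes were cut from lists of 26 S and 26 G2/M genes that hold no member. A G2/M-class cell had at least 5 UMIs of the G2/M list and no fewer than of the S list, an S-class cell at least 5 of the S list and more than of the G2/M list, and 5508 of 47949 cells lay near these cuts (4 or 5 UMIs). The G2/M class held 35.9% to 41.7% of cells in the 4 early libraries and 3.58% to 8.75% in the 4 late ones. The S class held 27.3% to 36.8% and 1.11% to 7.30%. Without thinning the G2/M ranges were 33.6% to 40.6% and 3.69% to 8.14%, and the S ranges 26.0% to 40.1% and 0.868% to 5.34%. On day 12 the G2/M class was 3.58% (3.02 to 4.21, exact Clopper-Pearson 95% interval, counting error only) of cells in SW620 and 8.75% (7.88 to 9.68) in SW620-TET2CD.

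Within the classes the late differences were much smaller than over all cells. The median log2 late minus early difference over the members was -0.54 in SW620 and -0.57 in SW620-TET2CD in S-class cells, and -0.40 and -0.49 in G2/M-class cells. MYBL2 was lower on the late days in both classes, by an amount that depended on the cut in the S class. In the G2/M class it stood at 112, 102, 49.3 and 30.3 CPM in SW620 and at 98.6, 104, 47.1 and 38.0 CPM in SW620-TET2CD on days 6, 9, 12 and 15. In the S class it stood at 107, 103, 55.1 and 71.3 CPM and at 108, 101, 41.7 and 54.2 CPM. In both classes and lines the late libraries were below the early ones. The S-class log2 difference of MYBL2 was -0.74 in SW620 and -1.12 in SW620-TET2CD at this cut, -2.16 and -2.04 at a cut of 3 UMIs, and -0.05 and -0.60 at a cut of 8. Its G2/M-class difference ran from -2.07 to -1.36 in SW620 and from -1.59 to -1.25 in SW620-TET2CD over the 3 cuts. FOXM1 in the G2/M class was 83.7, 91.1, 53.4 and 59.9 CPM in SW620 and 92.9, 101, 63.9 and 62.0 CPM in SW620-TET2CD, a log2 difference of -0.63 and -0.62, where over all cells it was -3.60 and -2.98. At a cut of 3 UMIs the G2/M-class differences of FOXM1 were -1.21 and -1.01, and at a cut of 8 -0.61 and -0.54. In the S class FOXM1 was lower by more, at -1.15 and -1.49, and a cut of 3 UMIs gave -2.47 and -2.30 there and a cut of 8 -0.48 and -1.12.

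The E2F1 level of the late S class depended on the class cut. At the cut of 5 UMIs it stood at 50.6, 46.8, 37.3 and 38.0 CPM in SW620 and at 46.2, 47.1, 36.7 and 38.8 CPM in SW620-TET2CD, log2 differences of -0.37 and -0.30. At a cut of 3 UMIs the differences were -1.34 and -1.04, and at a cut of 8 -0.04 and 0.08. In the G2/M class the E2F1 differences were -1.33 and -1.17. E2F3 was a little higher in late S-class cells (0.32 and 0.22), and the LIN54 difference in G2/M-class cells was 0.39 and 0.84. At a cut of 3 UMIs the LIN54 values were -0.02 and 0.52, and the E2F3 values in the S class 0.02 and 0.16. The S-class libraries of day 15 are small, with 76 cells in SW620 and 138 in SW620-TET2CD. There LIN54 and E2F7 rested on 4 and 3 UMIs in SW620 and 22 and 32 UMIs in SW620-TET2CD.

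Cells in neither class made up 83.95% to 93.5% of the late libraries. The median log2 difference over the members in this class was -2.54 in SW620 and -2.27 in SW620-TET2CD, beside -2.58 and -2.07 over all cells. For MYBL2, FOXM1 and E2F1 the differences in these cells were deeper than over all cells. MYBL2 in these cells stood at 46.9, 38.7, 0.977 and 0.921 CPM in SW620 and at 49.8, 33.0, 3.73 and 0.901 CPM in SW620-TET2CD, log2 differences of -5.50 and -4.16. At a cut of 3 UMIs the early levels of this class were lower, at 21.2 and 17.0 CPM in SW620 and 25.1 and 16.4 CPM in SW620-TET2CD, and the log2 differences were -5.13 and -4.19. At the cut of 5, FOXM1 had -4.47 and -3.84 and E2F1 -3.52 and -3.10. The E2F1 level of this class in SW620 on day 6 was 20.0 CPM at the cut of 5 and 9.02 CPM at the cut of 3. E2F4, which is known for its work in resting cells, stood at 106, 68.1, 50.9 and 38.9 CPM in SW620 and at 93.5, 71.0, 49.7 and 45.5 CPM in SW620-TET2CD, log2 differences of -0.95 and -0.79. E2F3 lay between 20.4 and 30.7 CPM in the neither class of all 8 libraries. The class cuts bear on the size of these differences, with a lower cut of 3 UMIs giving an S-class median of -1.29 and -1.03.

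**Figure D3:**
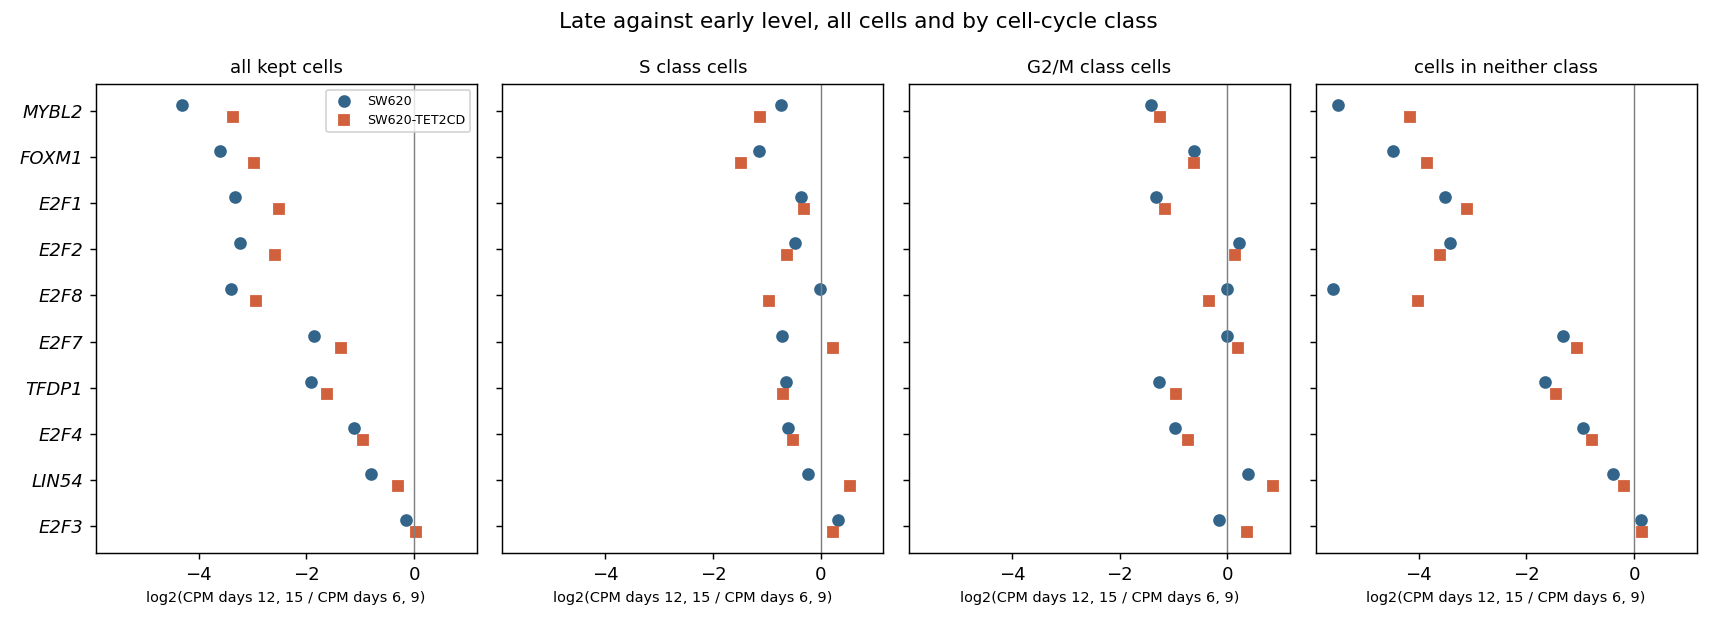
Log2 ratio of the late to the early mean CPM of each member over all kept cells and within the S, the G2/M and the neither class, circles for SW620 and squares for SW620-TET2CD. MYBL2 is at -4.32 and -3.36 over all cells and at -1.43 and -1.25 within G2/M-class cells, and E2F3 lies between -0.17 and 0.36 in every panel.

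The members split by phase when the G2/M class was tested against the S class within each library. The contrast is not that between late and early days, and the lists that cut the classes hold no member. Members and class genes were both chosen with earlier results of these data known. The phases are therefore not independent of how the classes were cut. FOXM1 was higher in G2/M-class cells in 8 of 8 libraries, with a median of 73.8 CPM (53.4 to 101) against 40.0 CPM (18.5 to 61.5) in S-class cells. Its fitted log2 fold change was 0.79 (SE 0.07, adjusted p = 1.65e-07, edgeR quasi-likelihood test, Benjamini-Hochberg adjusted, with the library as a block). E2F1 was higher in S-class cells in 8 of 8 libraries, with a median of 42.5 CPM (36.7 to 50.6) against 14.8 CPM (7.12 to 24.2), and a log2 fold change of -1.28 (SE 0.08, adjusted p = 7.53e-10). E2F2 fell by 1.23 on the log2 scale (SE 0.13, adjusted p = 1.12e-06) from the S to the G2/M class and was lower in 7 of 8 libraries, the exception being SW620 on day 12 with 9 and 4 UMIs. The ranges of FOXM1 in the S and G2/M classes overlapped between libraries, and those of E2F1 did not.

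Smaller shifts toward the S class passed the test for E2F7 (log2 fold change -0.33, SE 0.08, adjusted p = 0.00485), TFDP1 (-0.26, SE 0.06, adjusted p = 0.00241) and E2F3 (-0.18, SE 0.05, adjusted p = 0.00825). TFDP1 was lower in the G2/M class in 8 of 8 libraries, E2F3 in 7 and E2F7 in 6. MYBL2 had a log2 fold change of -0.09 (SE 0.07, adjusted p = 0.334), with a median of 85.9 CPM in the S class and 73.9 CPM in the G2/M class. E2F8 had -0.15 (SE 0.08, adjusted p = 0.158), E2F4 0.07 (SE 0.05, adjusted p = 0.257) and LIN54 0.09 (SE 0.08, adjusted p = 0.452). All members but E2F1 and E2F3 stood above the neither class in both classes in 8 of 8 libraries. E2F1 and E2F3 did so in 8 libraries in the S class and in 7 in the G2/M class. Of the 10 members 6 were called, 1 higher and 5 lower in the G2/M class, where 29.1% of the 12871 genes tested were called. With a cut of 8 UMIs, which left 5 libraries with enough cells, 9 members were called, MYBL2, E2F8 and E2F4 among them, beside 25.1% of 13171 genes. With a cut of 3 UMIs 5 were called, without E2F7, beside 27.6% of 13529 genes. Without SW620-TET2CD day 9 E2F3 was not called (adjusted p = 0.0653, with 0.00355 to 0.0653 over all alternatives).

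**Figure D4:**
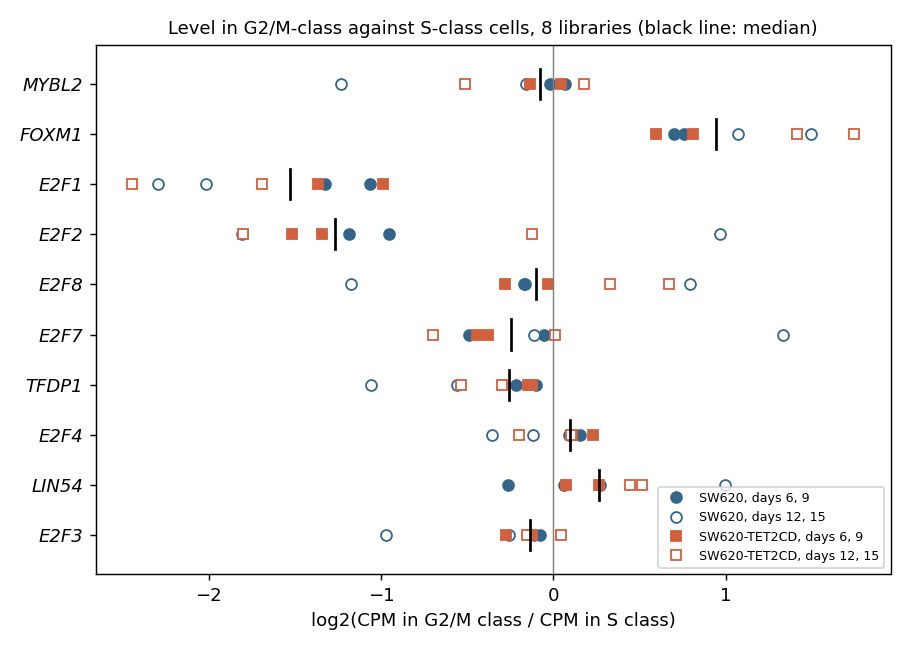
Log2 ratio of the CPM in G2/M-class to that in S-class cells for each member, 1 point per library (filled for days 6 and 9, open for days 12 and 15, circles for SW620 and squares for SW620-TET2CD), with a black line at the median. FOXM1 lies above 0 and E2F1 and TFDP1 below 0 in all 8 libraries.

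The target lists sorted by phase as their names say. All 20 G2/M targets were higher in the G2/M class past the threshold, led by the kinase PLK1 (log2 fold change 2.42), the kinesin KIF20A (2.21) and the centromere motor CENPE (2.18), with a list median of 1.47 against -0.01 over all genes tested. Of the 20 G1/S targets 18 were lower and none higher past the threshold, led by the cyclins CCNE2 (-1.91) and CCNE1 (-1.77) and the helicase subunit MCM6 (-1.22), with a median of -0.49. Of the 12 partners 3 were higher and 3 lower past the threshold. The 3 with the largest changes were E2F5 (0.54) and RBL2 (0.32), higher in the G2/M class, and TFDP2 (-0.26), lower there. These lists were compiled from general knowledge of the cycle, as were the class genes, and with earlier results of these data known. Their phases are therefore close to what the classes were cut on.

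Within the early pair and within the late pair of days the members differed less. Between days 6 and 9 no member passed the test, where 0.926% of the 16526 genes tested were called. The largest differences were those of TFDP1 (log2 fold change -0.53, SE 0.14, adjusted p = 0.104, edgeR quasi-likelihood test, Benjamini-Hochberg adjusted) and E2F4 (-0.52, SE 0.13, adjusted p = 0.0874). Both were lower on day 9 in both lines, and they were the 2 of 10 members with an unadjusted p under 0.05, as 16.5% of all genes had. DESeq2, which called 2.43% of genes, called the same 2 (adjusted p = 0.0289 and 0.0135), as did edgeR without SW620 day 15 or without SW620-TET2CD day 15. Over all alternatives their adjusted p ran from 0.0193 to 0.818 for TFDP1 and from 0.0127 to 0.792 for E2F4. MYBL2 (-0.19, SE 0.26) and FOXM1 (-0.03, SE 0.28) differed by less than their standard errors.

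Between days 12 and 15 TFDP1 fell by 0.71 on the log2 scale (SE 0.15, adjusted p = 0.0120) and E2F1 fell by 0.85 (SE 0.25, adjusted p = 0.0429), each in 2 of 2 lines. These 2 of 10 members stand beside 13.7% of the 16526 genes called. E2F7 had a log2 fold change of 0.61 (SE 0.19, adjusted p = 0.0536), and MYBL2 of -0.66 (SE 0.29, adjusted p = 0.145). FOXM1 went from 3.74 to 6.13 CPM in SW620 and from 10.8 to 6.25 CPM in SW620-TET2CD, with a fitted log2 fold change of -0.12 (SE 0.32, adjusted p = 0.836). Without SW620-TET2CD day 12 no member was called, and E2F1 was also lost without SW620 day 6, SW620 day 9, SW620 day 15, SW620-TET2CD day 9 or SW620-TET2CD day 15. With the RNA-rich cells kept, 6 members fell from day 12 to day 15, namely MYBL2 (-1.59), E2F1 (-1.43), E2F8 (-1.21), E2F2 (-1.07), FOXM1 (-1.02) and TFDP1 (-0.94), with adjusted p from 0.00156 to 0.0306 by the edgeR quasi-likelihood test, where 17.9% of 17419 genes were called. Over all alternatives the adjusted p ran from 0.00124 to 0.842 for MYBL2 and from 0.0102 to 0.942 for FOXM1. Of the targets, MCM5 (-1.12) and MCM2 (-0.81) fell among the G1/S list and PRC1 (0.88), a spindle midzone protein, rose among the G2/M list, and of the partners E2F5 fell (-0.45).

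The comparison of the lines asks whether these levels differ between SW620-TET2CD and SW620. With 1 line of each, an effect of the TET2 catalytic domain cannot be told apart from other differences between the lines. No member passed the test with the day as a block (edgeR quasi-likelihood test, Benjamini-Hochberg adjusted, lowest adjusted p = 0.187). Of the 16526 genes tested 4.21% were called. The lack of member calls does not show that the levels were alike. E2F8 was the 1 of 10 members with an unadjusted p under 0.05, as 14.6% of all genes had, with a log2 fold change of 0.36 (SE 0.13) and a higher level in SW620-TET2CD on 4 of 4 days. DESeq2 called no member either. The fitted log2 fold change was above 0 for 9 of the 10 members, with a median of 0.14 against -0.0035 over all genes tested, and E2F4 was the exception (-0.05, SE 0.09). MYBL2 had 0.23 (SE 0.19, adjusted p = 0.662) and FOXM1 0.33 (SE 0.21, adjusted p = 0.549).

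The day with the widest line difference was not the same for all members. The log2 ratio of SW620-TET2CD to SW620 for FOXM1 was 0.29 on day 6, 0.04 on day 9, 1.53 on day 12 and 0.03 on day 15. For MYBL2 it was -0.05, -0.06, 1.30 and 0.30 and for E2F1 -0.12, -0.0003, 1.01 and 0.28. These 3 and E2F2 (0.88 on day 12, 0.48 on day 15) were widest apart on day 12 under these cell limits. The E2F2 ratios rested on 28 and 16 UMIs on day 12 and on 27 and 20 UMIs on day 15. Without the upper cell limits FOXM1 in SW620-TET2CD and SW620 was 26.2 and 11.7 CPM on day 12 and 10.7 and 7.02 CPM on day 15. MYBL2 was then 29.4 and 13.8 CPM, and 9.06 and 4.82 CPM. E2F1 was 11.5 and 7.50 CPM, and 4.14 and 2.70 CPM, about the same ratio on both days. E2F8 (0.78 and 0.73) and E2F7 (0.67 and 0.62) differed about equally on days 12 and 15. E2F3 (0.19 and 0.44), E2F4 (0.04 and 0.23), LIN54 (0.34 and 0.56) and TFDP1 (0.32 and 0.33) had their highest ratio on day 15. The shares of G2/M-class and S-class cells were also higher in SW620-TET2CD on day 12 (8.75% and 7.30% against 3.58% and 2.92%). Within G2/M-class cells of day 12 MYBL2 was 47.1 CPM in SW620-TET2CD and 49.3 CPM in SW620, and FOXM1 63.9 and 53.4 CPM. The MYBL2 order turned at a cut of 3 UMIs (37.1 and 26.7 CPM) and without the upper cell limits (61.8 and 52.1 CPM). Leaving out either day 12 library turned the fitted line difference of MYBL2 to -0.08 and -0.07 and that of E2F1 to -0.09 and -0.08. In the test of whether the late minus early change differed between the lines, 0 of 10 members and 0% of the 16526 genes were called, by edgeR and by DESeq2, and no member had an unadjusted p under 0.05, as 0.787% of all genes had. The days of a period stand in for replicates there, although 13.7% of genes were called between days 12 and 15. The lack of calls therefore does not show that the lines changed alike. MYBL2 had the largest interaction (0.87, SE 0.44), and all 10 were above 0. Without SW620-TET2CD day 12 those of E2F1 (-0.05), E2F4 (-0.08), TFDP1 (-0.26) and FOXM1 (-0.0066) were below 0, and leaving out other single libraries turned E2F3, E2F4 or TFDP1.

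Bulk RNA-seq gives levels per transcript length (TPM), in which members can be ranked. Over the 6 libraries the median was highest for E2F4 (168 TPM, range 63.7 to 174) and TFDP1 (77.6 TPM, 52.5 to 151), followed by FOXM1 (20.0 TPM, 7.45 to 117), MYBL2 (15.5 TPM, 4.64 to 58.3), E2F3 (13.045 TPM, 9.70 to 14.1), E2F1 (9.15 TPM, 4.78 to 48.1), LIN54 (7.05 TPM, 5.64 to 10.9), E2F7 (2.75 TPM, 1.90 to 6.19), E2F2 (1.07 TPM, 0.38 to 2.27) and E2F8 (0.75 TPM, 0.44 to 12.9). The ranges of neighbours in this order overlap throughout, and the order as a whole holds for the medians. Some neighbours swapped within a library, such as E2F4 (63.7 TPM) and TFDP1 (151 TPM) in SW480. Others did not, such as FOXM1, which stood above MYBL2 in all 6 libraries. The bulk kit does not mark strand, and FOXM1 overlaps RHNO1 and ITFG2, LIN54 overlaps THAP9 and E2F8 overlaps CSRP3-AS1 on the opposite strand, so reads of these pairs cannot be told apart in the overlaps.

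On day 6 the 2 lines without transgene differed most in E2F4, E2F1 and E2F8, with 1 library each and no test. E2F4 stood at 173 TPM in SW620 and 63.7 TPM in SW480. E2F1 stood at 19.1 and 48.1 TPM, E2F8 at 5.49 and 12.9 TPM and FOXM1 at 64.3 and 117 TPM. MYBL2 was close, at 58.3 TPM in SW620 and 56.5 TPM in SW480. In bulk RNA, fewer cells of a kind and less RNA per cell cannot be told apart.

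The bulk levels of day 15 were lower than those of day 6 for the same members, by other amounts than in the single-cell sums. The day 6 level in SW620 was 4.34 times the level inside and 3.32 times the level outside the colonies of day 15 for MYBL2, beside 21.8 times between the same days in the single-cell sums. For FOXM1 the ratios were 4.06 and 2.66 beside 9.38, and for E2F1 2.30 and 2.05 beside 13.2. E2F4 was level in bulk (1.01 and 1.07) and 3.03 times higher on day 6 in the single-cell sums. E2F8 (8.32 and 7.13 beside 11.4) and E2F3 (1.04 and 1.05 beside 1.03) gave closer values. Keeping the RNA-rich cells left the single-cell ratio of MYBL2 at 20.4. What sets this gap was not tested.

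**Figure D5:**
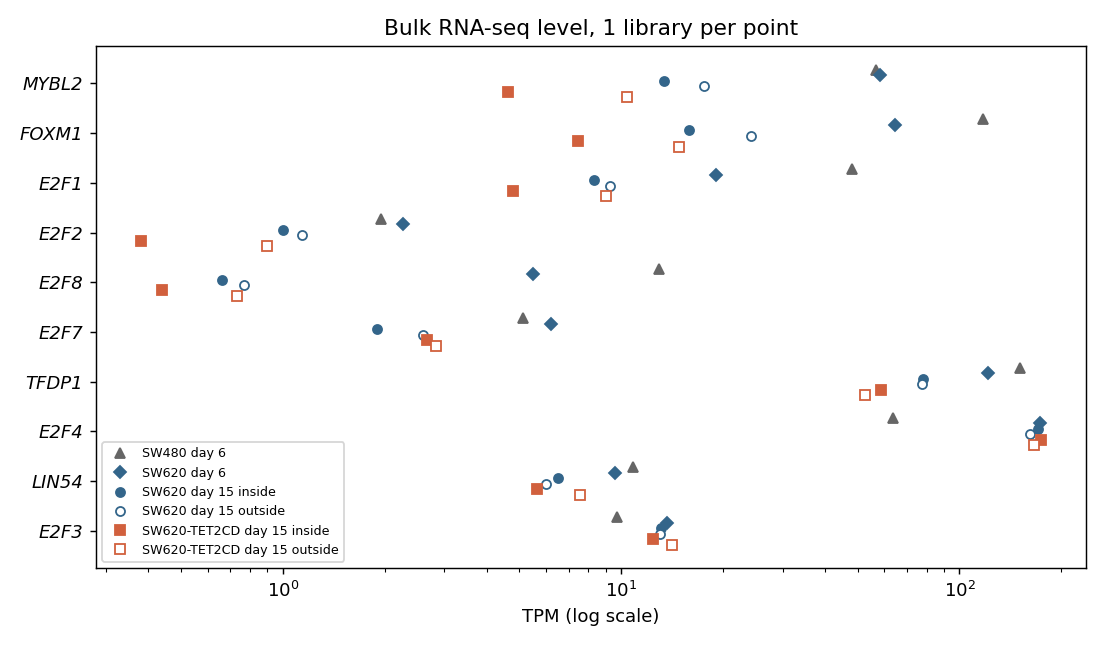
Bulk level of each member (TPM, log axis) in the 6 libraries, with a triangle for SW480 and a diamond for SW620 on day 6, circles for SW620 and squares for SW620-TET2CD on day 15, filled inside and open outside the colonies. SW620-TET2CD inside the colonies has the lowest MYBL2 (4.64 TPM) and FOXM1 (7.45 TPM), and E2F4 lies between 162 and 174 TPM in the 5 libraries other than SW480.

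Cells outside the colonies were compared with those inside, which asks whether the cells that migrate out differ in these factors. MYBL2 was 13.4 TPM inside and 17.6 TPM outside in SW620, and 4.64 and 10.4 TPM in SW620-TET2CD. FOXM1 was 15.9 inside and 24.2 TPM outside in SW620, and 7.45 and 14.8 TPM in SW620-TET2CD. E2F1 was 8.30 and 9.30 TPM in SW620, and 4.78 and 8.99 TPM in SW620-TET2CD. All 3 were higher outside in 2 of 2 lines. No member passed the test with the line as a block (edgeR quasi-likelihood test, Benjamini-Hochberg adjusted, lowest adjusted p = 0.772), and none of the 17722 genes did (0%, 1068 with an unadjusted p under 0.05). FOXM1 (log2 fold change 0.87, SE 0.20), MYBL2 (0.73, SE 0.20) and E2F7 (0.61, SE 0.20) had an unadjusted p under 0.05, and DESeq2 called no member. Without the filter on low counts FOXM1 (adjusted p = 0.00221) and MYBL2 (adjusted p = 0.0234) were called, beside 1.5% of 31544 genes. The fit of E2F7 rests on expected counts (179 inside and 229 outside in SW620, 151 and 305 in SW620-TET2CD), and its TPM differed less in SW620-TET2CD (2.67 and 2.83 TPM) than in SW620 (1.90 and 2.59 TPM). The median of the fitted values over the members was 0.56, and 9 of 10 were above 0 against a median over all genes of 0.01. E2F4 was the exception. In TPM TFDP1 was also lower outside in both lines (log2 difference -0.012 in SW620 and -0.16 in SW620-TET2CD). Of the target lists 20 of 20 G1/S genes and 20 of 20 G2/M genes were higher outside and 0 passed, with medians of 0.41 and 1.02. The summed G2/M class genes moved with them, from 605 to 753 TPM in SW620 and from 304 to 610 TPM in SW620-TET2CD. The part of these sums in the members' differences was not tested.

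Between the lines on day 15, no member passed the test with the location as a block, where 0.412% of the 17722 genes were called. MYBL2 had a log2 fold change of -1.19 in SW620-TET2CD against SW620 (SE 0.20, adjusted p = 0.0852), FOXM1 -0.995 (SE 0.20, adjusted p = 0.111) and TFDP1 -0.54 (SE 0.12, adjusted p = 0.119), each lower in both locations. These 3 of 10 had an unadjusted p under 0.05, as 20% of all genes had. DESeq2, which called 4% of genes, called MYBL2 (adjusted p = 0.00166) and FOXM1 (adjusted p = 0.00738). Of the 10 members 9 were below 0, as were 20 of 20 G2/M targets (median -1.08, 0 past the threshold and 16 with an unadjusted p under 0.05) and 19 of 20 G1/S targets (median -0.37, 0 past the threshold and 12 with an unadjusted p under 0.05), against a median over all genes of -0.0005. The summed G2/M class genes were 304 TPM in SW620-TET2CD and 605 TPM in SW620 inside, and 610 and 753 TPM outside, and their part in the members' differences was not tested. Over all alternatives the adjusted p ran from 8.70e-06 to 0.0704 for MYBL2 and from 4.41e-05 to 0.0947 for FOXM1, the lowest without the filter on low counts, where 7.1% of 31544 genes were called. The difference of MYBL2 was wider inside the colonies (4.64 against 13.4 TPM) than outside (10.4 against 17.6 TPM). In the single-cell sums of the same day MYBL2 was a little higher in SW620-TET2CD (5.35 CPM) than in SW620 (4.33 CPM). FOXM1 was close, at 6.25 and 6.13 CPM, as was the G2/M class, at 5.43% and 5.51% of cells. Without the upper cell limits all 3 were higher in SW620-TET2CD than in SW620. MYBL2 was then 9.06 and 4.82 CPM, FOXM1 10.7 and 7.02 CPM, and the G2/M class 7.87% and 6.06% of cells. With the upper limits in place, the summed G2/M targets of the single cells were lower in SW620-TET2CD (290 against 331 CPM), as in bulk. The summed G2/M class genes were level there (899.8 against 896.7 CPM). The summed G1/S targets (409 against 335 CPM) and S class genes (650 against 496 CPM) were higher in SW620-TET2CD. In bulk both of these sums were lower in SW620-TET2CD in both locations. In the bulk fit E2F4 (-0.04, SE 0.10), E2F3 (-0.04, SE 0.10) and LIN54 (-0.01, SE 0.17) had the smallest differences.

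Across the 8 single-cell libraries the genes most like MYBL2 in log2(CPM + 1), of 8711 genes compared (mean at or above 8 CPM), were SMC2, a condensin subunit (Pearson r = 0.9991), CENPM (r = 0.9987) and TYMSOS (r = 0.9983). Those most like FOXM1 were CDCA5, the cohesin protector sororin (r = 0.9985), PIMREG (r = 0.9981) and FANCD2 (r = 0.9981). Those most like E2F1 were MCM7, a subunit of the replicative helicase (r = 0.9997), TYMS, thymidylate synthase (r = 0.9994), and GMNN, geminin (r = 0.999). TYMS and GMNN are in the S list that cut the classes, and MCM7 is in the G1/S target list. Among the members the closest pair was E2F1 and MYBL2 (r = 0.9967) and the least alike were E2F3 and E2F4 (r = 0.04). The libraries fall into an early and a late cluster and each member's value shares its library and depth with all others, so these coefficients describe that step and carry no test.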

How the data were processed

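SW620, SW620-TET2CD and SW480 cells were profiled by 10x 3′ v3.1 single-cell RNA-seq (8 libraries) and bulk RNA-seq (6 libraries), with 1 library per condition. For the single cells, the authors counted UMIs with Cell Ranger 4.0 on GRCh38 and deposited the counts per gene and barcode. For bulk, the authors aligned reads with Bowtie and deposited RSEM expected counts, TPM and FPKM per gene (FPKM was not used here). The labels name mm10 as the bulk build although the gene identifiers are human. Cells were kept at 200 to 4500 genes, 1000 to 20000 UMIs and up to 10% mitochondrial UMIs, and UMIs were summed per library (CPM). These limits left more cells than the study analysed. The 45 second copies of pseudoautosomal genes were left out of the bulk tables.

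Tests used edgeR 4.0.16 (glmQLFit and glmQLFTest, TMM factors, filterByExpr, Benjamini-Hochberg) in R 4.3.3 on all genes, with a call at an adjusted p under 0.05. The line was tested with the day as a block, the interaction between line and period (days 6 and 9, days 12 and 15) and the day steps over all 8 libraries, the G2/M against the S class with the library as a block, and location and line over the 4 bulk day 15 libraries, which leave 1 residual degree of freedom. Expected counts were rounded to whole numbers. The fits were tested on simulated data first. With 1 library per condition, days or lines stand in for replicates. Alternatives were DESeq2 1.42.0, upper-quartile factors, no filter on low counts, no upper cell limits, every barcode, class cuts of 3 and 8 UMIs, no day term, and leaving out each library. Late and early days were compared as log2 ratios of mean CPM without a pseudocount. Python 3.11.15 was used for sums and figures. Promoters and positions came from RefSeq GRCh38.p14 and an annotation of GRCh38. At the depth of a kept library, 3 UMIs are 0.0404 to 0.0623 CPM, a limit that covers counting error only.

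The members, target and partner lists, class genes and markers were chosen with earlier results of these data known. All 10 members are named. From each other list, up to 3 genes with the largest called change are named, and from the likeness ranking the 3 most alike.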

Additional observations from a re-analysis of the deposited data

Results flagged for a closer look

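In 4 comparisons of the bulk day 15 libraries a member moved in opposite directions in the groups compared, with 1 library on each side, and these differences were not tested. The log2 TPM of E2F3 outside minus inside the colonies was -0.0077 in SW620 and 0.19 in SW620-TET2CD, and that of LIN54 was -0.12 and 0.43. The log2 TPM of E2F3 in SW620-TET2CD minus SW620 was -0.078 inside and 0.12 outside the colonies, and that of LIN54 was -0.21 and 0.34. LIN54 shares 9997 bases with THAP9 on the opposite strand, and the part of its reads in these values was not tested.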

How the results depend on the processing

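Over all alternatives, 911 values kept their direction and their side of the threshold, or moved by less than the spread. Of the others 66 changed direction, 29 passed the threshold newly, 9 no longer passed it and 150 moved further. The cause of the differences below was not tested, except that leaving out libraries leaves fewer samples. Without the filter on low counts the line comparison called 1489 genes and the interaction 15. Without the day term the line comparison called 46 genes, with E2F1 at -0.029 and MYBL2 at -0.051. For day 9 against day 6, DESeq2 called 2 members and 401 genes, no filter 2 and 978, and every barcode 1 and 471, and upper-quartile factors gave FOXM1 0.016. For day 15 against day 12, no filter called 4 members and 3320 of 26937 genes, no upper limits 6 and 3112 of 17419, and every barcode 6 and 3320 of 17601. Without upper limits and over every barcode, E2F2 was at -1.07 and -1.10, E2F7 at -0.087 and -0.069 and LIN54 at -0.067 and -0.097, and upper-quartile factors gave E2F2 -0.0019. Between the classes, a cut of 3 UMIs gave E2F8 0.0599 and MYBL2 0.12, and a cut of 8 gave LIN54 -0.031. For the bulk location, DESeq2 called 21 genes and no filter 472 genes, with 2 members (FOXM1 and MYBL2) and TFDP1 at -0.0035. For the bulk line, DESeq2 called 2 members and 709 genes, upper-quartile factors 178 genes and no filter 3 members and 2239 genes.

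The median over the members of the late minus early difference, averaged over the lines, was -1.72 without upper limits and -1.74 over every barcode. In the S class it was -1.16 with a cut of 3, -0.19 with a cut of 8 and -0.28 without upper limits. In the G2/M class it was -0.83 with a cut of 3 and -0.26 with a cut of 8, and in the neither class -2.07 with a cut of 3 and -2.13 without upper limits. Averaged over the lines, E2F3 over all cells was 0.020 without upper limits and 0.047 over every barcode, and -0.012 in the neither class at a cut of 8. E2F1 in the S class was 0.021 at a cut of 8, and LIN54 there -0.14 at a cut of 3. In the G2/M class E2F2 was -0.41 at a cut of 3 and -0.21 without upper limits, E2F7 -0.33 at a cut of 3 and E2F8 0.057 at a cut of 8.

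Leaving out 1 library at a time, the line comparison called 416 to 680 genes, day 9 against day 6 called 0 to 2 members and 3 to 1261 genes, day 15 against day 12 called 0 to 4 members and 285 to 3049 genes, and the median late minus early difference ran from -2.46 to -2.20. The line difference ran from -0.085 to 0.28 for E2F1 and from -0.076 to 0.39 for MYBL2. The interaction ran from -0.054 to 1.23 for E2F1, -0.035 to 0.18 for E2F3, -0.27 to 0.34 for E2F4, -0.26 to 0.58 for TFDP1 and -0.0066 to 0.997 for FOXM1. For day 9 against day 6 MYBL2 ran from -0.48 to 0.048, FOXM1 from -0.31 to 0.22 and LIN54 from -0.25 to 0.073. For day 15 against day 12 E2F2 ran from -0.32 to 0.52, E2F8 from -0.21 to 0.26, MYBL2 from -1.24 to 0.11, FOXM1 from -0.76 to 0.74 and LIN54 from -0.016 to 0.28. In bulk, where leaving out a library leaves no residual degrees of freedom and so no test, the location difference ran from -0.20 to 0.0029 for E2F4, -0.16 to 0.17 for TFDP1 and -0.075 to 0.29 for LIN54. The bulk line difference ran from -0.089 to 0.0038 for E2F3, -0.14 to 0.058 for E2F4 and -0.19 to 0.17 for LIN54. E2F3 over all cells ran from -0.14 to 0.016. Depth limits E2F2, E2F7, E2F8 and LIN54 most in the small late classes.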
